A study of Homo sapiens with 8 samples.

Results

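MFGE8 and 9 other genes of phosphatidylserine recognition were followed in human embryonic stem cells (hESCs) whose secreted MFGE8 protein was blocked with an antibody. The 10 genes were chosen by name from their known roles and matched by symbol among the 62086 gene identifiers of the count table. They are the secreted bridges MFGE8, EDIL3, GAS6 and PROS1, the receptors TYRO3, AXL, MERTK, ADGRB1 and SCARB1, and the anti-engulfment signal CD47. All 10 passed the filter on low counts that left 20165 genes.

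RNA was sequenced from BG01, an established hESC line kept in the medium mTeSR. One arm received 5 µg/mL of anti-M8nAb, a neutralizing antibody against MFGE8, and the other 5 µg/mL of normal mouse IgG, the isotype control. Cells were taken after 12 or 24 h, with 2 libraries in each of the 4 groups, 8 in all. The antibody acts on the secreted protein, so the MFGE8 transcript does not check whether the block worked.

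Phosphatidylserine is kept on the inner face of the plasma membrane in healthy cells and appears on the outer face of dying cells and of extracellular vesicles. MFGE8 and EDIL3 hold it through discoidin domains and hold integrins through an RGD motif, whereas GAS6 and PROS1 link it to the TAM receptor tyrosine kinases TYRO3, AXL and MERTK. ADGRB1 (BAI1) binds it directly and signals through ELMO and DOCK1 to RAC1, SCARB1 is a lipoprotein receptor that also binds it, and CD47 gives phagocytes a signal against engulfment through SIRPA. Embryonic cells, which exist before dedicated phagocytes form, can take up dying neighbours and vesicles themselves.

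Levels are given as CPM, counts scaled to a common library size by TMM, and as the deposited FPKM, which is per length, where genes are compared with each other. A gene was called higher or lower at an adjusted p under 0.05 in edgeR's two-sided quasi-likelihood F test. Counts over genes lay between 21010400 and 21792716 per library. The labels speak of biological replicates but name no separate cultures, and a p-value here therefore reflects only how far these libraries scatter, which may be technical. The pseudogene total was 2397 to 2587 CPM in the IgG libraries, 3518 and 5221 CPM in the 12 h antibody libraries and 2752 and 2791 CPM in those of 24 h, so replicate 2 of anti-M8nAb at 12 h stood apart. All 9 hESC markers were above 10 CPM in every library, with POU5F1 at 1309 to 1570 CPM. With anti-M8nAb 6 of these markers rose at 12 h and EPCAM fell, against 15.8% of all genes tested called higher and 16.4% lower. At 24 h POU5F1, LIN28A and DPPA4 rose and NANOG, SOX2 and EPCAM fell, against 21.2% and 21.3%. On log2(FPKM + 1) the 12 h calls of POU5F1 and LIN28A were lost (adjusted p = 0.0681 and 0.151, limma). So was the 24 h call of LIN28A (adjusted p = 0.0512, limma). The FPKM fits take no TMM scaling. On log2(FPKM + 1) the median log2 fold change of all genes fitted was -0.04 at 12 h and -0.07 at 24 h. The 12 h call of EPCAM was lost when any library of that time was left out (log2 fold change -0.15 to -0.11). The summed level of the 9 hESC markers was 6927 to 7080 CPM in IgG and 7542 to 7582 CPM in antibody libraries at 12 h. At 24 h it was 6257 to 6262 against 6703 to 6858 CPM, and its part in the results below was not tested. Of 9 macrophage and dendritic cell markers, 6 were below 1 CPM in every library, and CD14, CSF1R and TYROBP did not exceed 0.195 CPM. The others were AIF1 at 3.47 to 4.75 CPM, CD68 at 1.03 to 1.85 CPM and MRC1 at 0.245 to 1.02 CPM.

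The RGD codons of the 2 bridges that bind integrins are shown because this motif is what sets MFGE8 and EDIL3 apart from GAS6 and PROS1. Capitals mark the codons for R, G and D, and each stretch is coding sequence of GRCh38 read on the minus strand. The MFGE8 stretch is in exon 2 of 8 (chr15:88909823-88909891), with R at codon 46 of 387, and the EDIL3 stretch is in exon 4 of 11 (chr5:84180424-84180492), with R at codon 96 of 480.
MFGE8: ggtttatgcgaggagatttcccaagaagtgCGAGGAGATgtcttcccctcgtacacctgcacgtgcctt
EDIL3: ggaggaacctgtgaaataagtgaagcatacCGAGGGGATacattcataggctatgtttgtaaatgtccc

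Per length, MFGE8 was by far the most abundant of the 10 genes. Its mean over the 4 IgG libraries was 102 FPKM, above 98.2% of the genes tested. EDIL3 followed at 13.3 FPKM, TYRO3 at 10.7, GAS6 at 8.96, SCARB1 at 7.24 and AXL at 7.10 FPKM. MERTK (2.52 FPKM), CD47 (2.45 FPKM) and ADGRB1 (1.44 FPKM) were lower, and PROS1 was at 0.143 FPKM. Among the secreted bridges, MFGE8 held 81.0 to 82.4% of the summed FPKM in the IgG libraries and 84.0 to 86.2% with anti-M8nAb. Within each time the IgG libraries of SCARB1 and AXL overlapped, and those of MERTK and CD47 did so at 24 h, while at 12 h CD47 was above MERTK in both. GAS6 was above SCARB1 in FPKM in the IgG libraries of each time. This order depends on the length used, and the merged exons span 14887 bases for SCARB1 and 5134 for AXL. In CPM the IgG means at 12 and 24 h were 114.5 and 110.9 for TYRO3, 99.97 and 110.1 for SCARB1 and 73.17 and 78.02 for EDIL3. They were 50.48 and 54.62 CPM for GAS6 and 33.35 and 37.7 CPM for AXL.

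**Figure D1:**
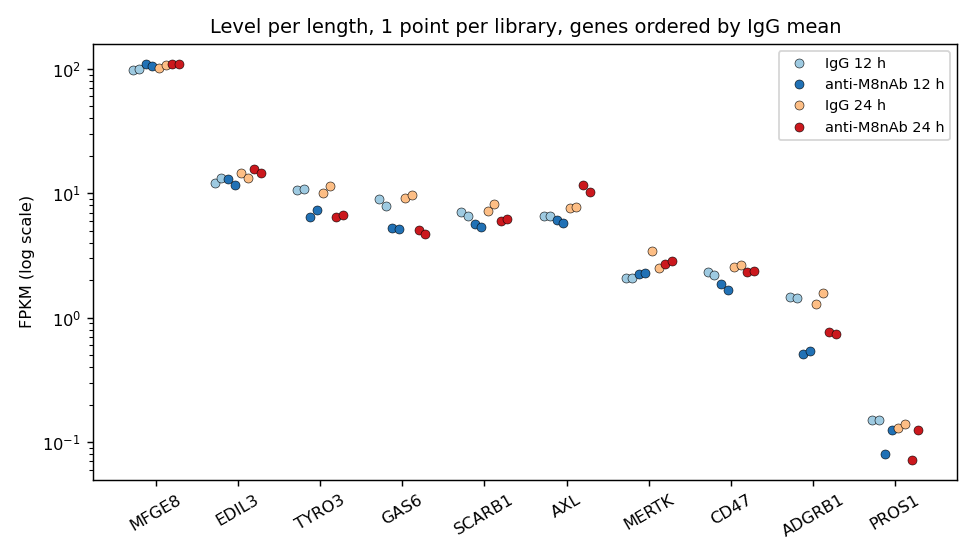
FPKM of the 10 genes on a log scale, 1 point per library coloured by group, with genes ordered by their mean in the IgG libraries. MFGE8 lies near 102 FPKM in IgG cells and PROS1 near 0.143 FPKM, and the AXL points with anti-M8nAb at 24 h stand above the other AXL points.

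With anti-M8nAb for 12 h, GAS6, TYRO3, ADGRB1, SCARB1 and CD47 fell and MFGE8 rose, and after 24 h GAS6, TYRO3, ADGRB1 and SCARB1 were again lower while MFGE8, EDIL3 and AXL were higher. At 12 h, 1 of the 10 genes was called higher, against 15.8% of all genes tested, and 5 were called lower, against 16.4%. At 24 h, 3 were called higher, against 21.2%, and 4 lower, against 21.3%. The median log2 fold change of the 10 genes was -0.26 at 12 h and -0.16 at 24 h, where that of all genes tested was 0.00 at both times. ADGRB1 at 12 h was the 1 member lower by at least 2-fold, a change that 2.97% of all genes passed. The comparisons at 12 and 24 h use separate IgG libraries, and the difference between them and the change with time in IgG cells use the same ones again. The measurements are of bulk RNA, in which fewer cells of a kind and less RNA per cell cannot be told apart.

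**Figure D2:**
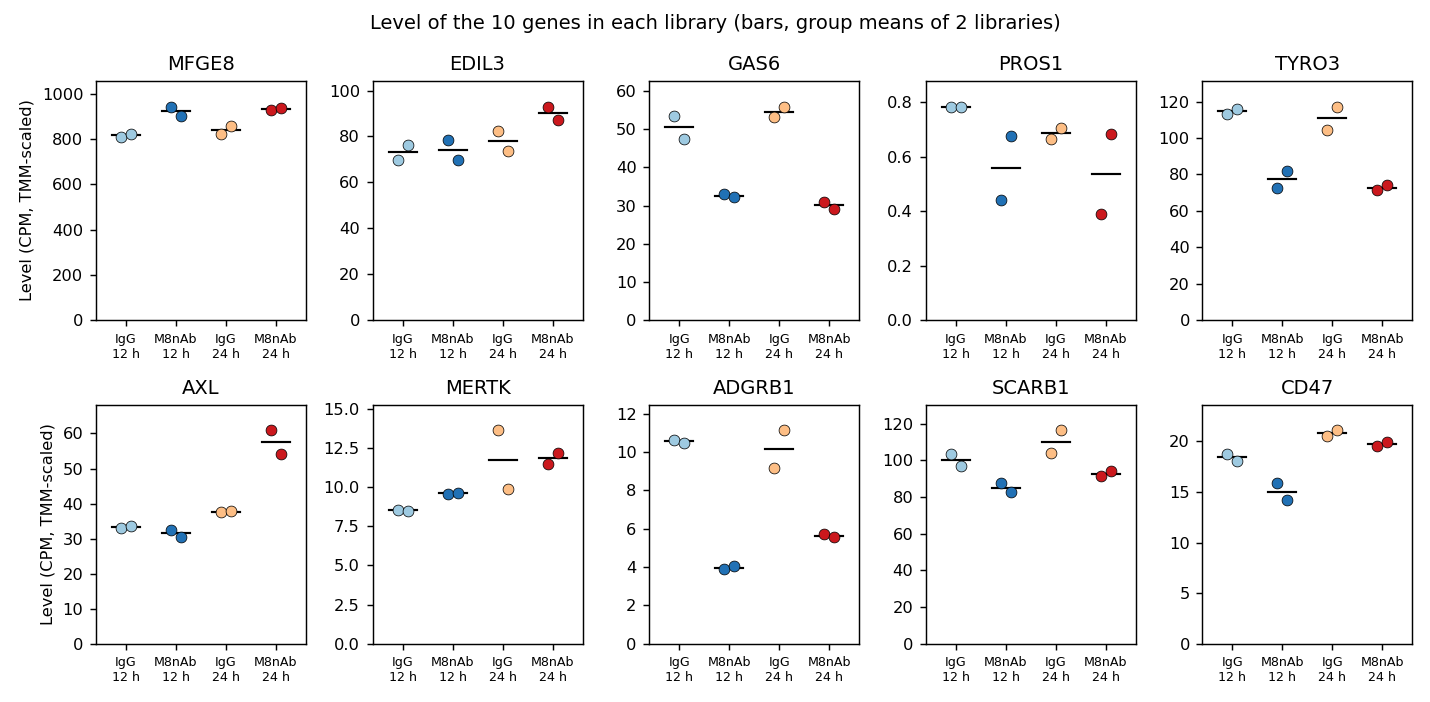
Level of each of the 10 genes (CPM, linear axes from 0), 1 point per library and a bar at the mean of the 2 libraries of each group, with M8nAb standing for anti-M8nAb. GAS6, TYRO3 and ADGRB1 are lower with anti-M8nAb at both times, and AXL is higher at 24 h.

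MFGE8 (ENSG00000140545, chromosome 15, 88898683 to 88913468, minus strand) was at 811 and 823 CPM with IgG and at 944 and 903 CPM with anti-M8nAb at 12 h. At 24 h it was at 823 and 860 CPM with IgG and at 929 and 935 CPM with anti-M8nAb. At each time the antibody libraries lay above the IgG ones, and the 2 IgG groups overlapped. The transcript rose by 13.0% at 12 h and by 10.8% at 24 h in the count test (95% intervals of the log2 fold change, 0.09 to 0.26 and 0.06 to 0.23). Neither increase passed on log2(FPKM + 1), where the values were 0.11 (adjusted p = 0.0679, limma) and 0.06 (adjusted p = 0.254, limma). In that fit, without TMM scaling, the median of all genes fitted was -0.04 at 12 h and -0.07 at 24 h. It was 0.00 at both times in the count test, and the part of this shift in the MFGE8 values was not tested. The 24 h call in the count test was lost without replicate 1 of IgG at 24 h (log2 fold change 0.11). The difference between the 2 responses was not called (log2 -0.03, 95% interval -0.15 to 0.09).

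EDIL3 (ENSG00000164176, chromosome 5, 83940554 to 84384880, minus strand), a paralogue of MFGE8 with the same kinds of domain, was at 69.9 and 76.4 CPM with IgG and at 78.3 and 69.5 CPM with anti-M8nAb at 12 h. At 24 h the values were 82.4 and 73.7 CPM against 93.0 and 87.2 CPM. The libraries overlapped at 12 h and were separate at 24 h. The log2 fold change was 0.01 (SE 0.07, adjusted p = 0.904) at 12 h and 0.21 (SE 0.07, adjusted p = 0.0172) at 24 h, and the latter was not called on log2(FPKM + 1), at 0.11 (adjusted p = 0.298, limma). It was also lost without replicate 2 of IgG at 24 h (0.13, adjusted p = 0.246), without replicate 1 of anti-M8nAb at 24 h (0.16, adjusted p = 0.159) and with no filter on low counts (0.20, adjusted p = 0.0889). The difference between the times was 0.19 (95% interval -0.01 to 0.39, adjusted p = 0.242). EDIL3-DT overlaps 4.26% of the EDIL3 exon sequence on the other strand.

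GAS6 (ENSG00000183087, chromosome 13, 113820549 to 113864076, minus strand), the ligand that activates all 3 TAM receptors, showed a larger change than MFGE8. It was at 53.5 and 47.5 CPM with IgG and at 32.9 and 32.2 CPM with anti-M8nAb at 12 h. At 24 h it was at 53.3 and 55.9 CPM with IgG and at 31.1 and 29.1 CPM with anti-M8nAb. Every antibody library was below every IgG library. GAS6 fell by 0.63 on the log2 scale at 12 h (SE 0.09, adjusted p = 9.19e-08) and by 0.86 at 24 h (SE 0.09, adjusted p = 2.25e-11), and it was called under all 17 alternatives at each time. The ratio of MFGE8 to GAS6 in FPKM was 10.96 to 12.5 in the IgG libraries and 20.3 to 23.2 in the antibody libraries. GAS6-AS1, an antisense gene that overlaps 7% of the GAS6 exon sequence, was at 10.5 to 13.4 CPM with IgG and 5.99 to 6.99 CPM with anti-M8nAb, and its part in the GAS6 values was not tested.

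PROS1 (ENSG00000184500, chromosome 3, 93873051 to 93980003, minus strand), which encodes protein S, the other TAM ligand and an anticoagulant cofactor, was barely detected. At 12 h it had 17 and 17 counts in the IgG libraries and 9 and 14 in the antibody libraries, and at 24 h 15 and 16 against 8 and 14. The antibody libraries had fewer counts at both times, but after scaling to library size the 24 h groups overlapped. Neither change was called, and the 95% intervals of the log2 fold change, -1.52 to 0.56 and -1.41 to 0.71, show how large a change these counts cannot exclude in either direction.

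TYRO3 (ENSG00000092445, chromosome 15, 41557675 to 41583589, plus strand) was the leading TAM receptor gene of IgG cells. It was at 113 and 116 CPM with IgG and at 72.6 and 81.8 CPM with anti-M8nAb at 12 h. At 24 h the values were 105 and 117 CPM against 71.6 and 74.0 CPM. The 4 antibody libraries were all below the 4 IgG libraries. TYRO3 fell by 0.57 on the log2 scale at 12 h (SE 0.07, adjusted p = 5.6e-09) and by 0.61 at 24 h (SE 0.07, adjusted p = 5.95e-10), and both calls held under all 17 alternatives. The related pseudogene TYRO3P did not exceed 0.147 CPM.

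AXL (ENSG00000167601, chromosome 19, 41219223 to 41261766, plus strand), the TAM receptor activated by GAS6, responded at 24 h. It was at 33.1 and 33.6 CPM with IgG and at 32.5 and 30.5 CPM with anti-M8nAb at 12 h. At 24 h it was at 37.5 and 37.9 CPM with IgG and at 60.9 and 54.3 CPM with anti-M8nAb, above every other library. The log2 fold change was -0.08 (SE 0.09, adjusted p = 0.523) at 12 h and 0.61 (SE 0.08, adjusted p = 7.5e-08) at 24 h. The difference between the times passed its own test, at 0.69 (SE 0.12, adjusted p = 6.39e-05), and missed the threshold under limma on log2(FPKM + 1) with all genes (0.59, adjusted p = 0.0512). AXL was the 1 member whose response was higher at 24 h, against 5.79% of all genes, and no member had a lower one, against 6.54%. AXL is also expressed by mesenchymal and endothelial cells. Of 9 fibroblast markers 7 were tested, and PDGFRB and THY1 rose and COL1A2 fell at both times. Of all genes tested 15.8% were called higher and 16.4% lower at 12 h, and 21.2% and 21.3% at 24 h. The summed level of the 9 was 532 to 534 CPM in IgG and 575 to 613 CPM in anti-M8nAb libraries at 12 h. At 24 h the sum was 610.5 to 632 against 710.1 to 734 CPM. Most of it was THY1, at 389 and 388 against 473 and 449 CPM at 12 h. At 24 h THY1 was at 437 and 441 against 535.5 and 564.8 CPM. COL1A1 was not called at either time. DCN and LUM were below the filter: at 12 h DCN had 2 and 2 counts in IgG and 12 and 4 in antibody libraries and LUM 1 and 0 against 6 and 3, and at 24 h each had 1 and 0 counts against 0 and 0. Of 6 endothelial markers, all tested, 2 fell at 12 h, and 1 rose and 3 fell at 24 h, against the same shares. Their summed level was 107 to 109 CPM in IgG and 83.4 to 84.7 CPM in anti-M8nAb libraries at 24 h. At that time KDR was at 54.0 and 51.2 against 45.6 and 42.2 CPM. TEK was at 38.3 and 39.4 against 27.3 and 27.9 CPM. CDH5, VWF and CLDN5 did not exceed 2.68 CPM in any library. The 24 h call of KDR was lost without replicate 1 of IgG (-0.23) or replicate 2 of anti-M8nAb (-0.21) at 24 h. The 12 h call of ERG was lost without replicate 1 of IgG at 12 h (-0.44). The part of these markers in the AXL result was not tested.

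MERTK (ENSG00000153208, chromosome 2, 111898607 to 112029561, plus strand), known for clearing photoreceptor debris and apoptotic cells, did not pass the test with anti-M8nAb. It was at 8.53 and 8.51 CPM with IgG and at 9.57 and 9.65 CPM with anti-M8nAb at 12 h, and at 13.6 and 9.87 against 11.5 and 12.2 CPM at 24 h. The log2 fold changes were 0.17 (95% interval -0.13 to 0.48) and 0.01 (-0.28 to 0.30). With time in IgG cells MERTK was called higher at 24 h (0.46, adjusted p = 0.0326), the 1 such member against 7.01% of all genes higher and 6.64% lower, but without replicate 1 of IgG at 24 h the value was 0.23 (adjusted p = 0.476), and without replicate 1 or 2 of IgG at 12 h it was 0.47 at an adjusted p of 0.157 or 0.173.

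Summed over the TAM receptors, transcripts were at 19.3 to 21.5 FPKM with IgG. With the antibody the sum was 14.9 and 15.5 FPKM at 12 h and 20.8 and 19.9 FPKM at 24 h. TYRO3 made up 47.8 to 55.6% of this sum in IgG libraries, and with the antibody 43.8 and 47.9% at 12 h, the latter within the IgG range, and 31.2 and 33.7% at 24 h. AXL made up 33.8 to 36.0% with IgG, and with the antibody 41.2 and 37.4% at 12 h and 55.7 and 51.9% at 24 h. The ratio of AXL to TYRO3 in FPKM was 0.608 to 0.752 with IgG, and with the antibody 0.940 and 0.781 at 12 h and 1.79 and 1.54 at 24 h. These shares and ratios depend on the length used for FPKM, and the merged exons span 10770 bases for TYRO3 and 5134 for AXL. In CPM, TYRO3 stayed above AXL in the antibody libraries at 24 h (71.6 and 74.0 against 60.9 and 54.3 CPM). The shares describe the 8 libraries and were not tested.

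**Figure D3:**
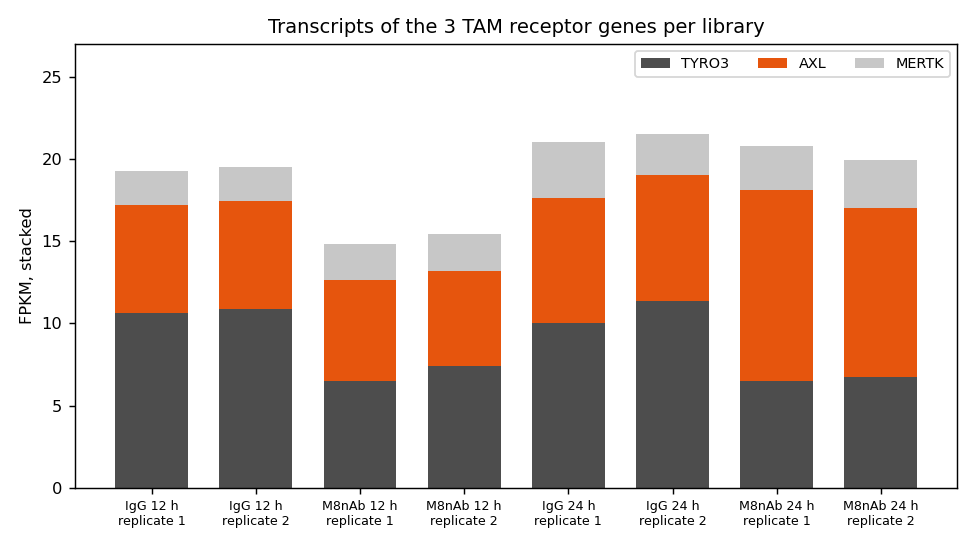
Stacked FPKM of TYRO3, AXL and MERTK in each library, with M8nAb standing for anti-M8nAb. AXL is the largest block in both anti-M8nAb libraries at 24 h, at 55.7 and 51.9% of the sum, where TYRO3 is the largest block in the 4 IgG libraries. In CPM, which is not per length, TYRO3 was above AXL in these anti-M8nAb libraries as well.

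The promoters of AXL, TYRO3 and GAS6 are shown because these genes carry the TAM changes and moved in opposite directions at 24 h. Each is the 250 bases before the RefSeq start on GRCh38.p14, 5′ to 3′ on the strand of the gene. Capitals mark the GC box GGGCGG, the pattern TGANTCA (N, any base) and CCAAT on either strand. AXL is at chr19:41218973-41219222 (plus), TYRO3 at chr15:41558962-41559211 (plus) and GAS6 at chr13:113864077-113864326 (minus). The RefSeq start of TYRO3 lies within the GENCODE gene, downstream of its first base.
AXL: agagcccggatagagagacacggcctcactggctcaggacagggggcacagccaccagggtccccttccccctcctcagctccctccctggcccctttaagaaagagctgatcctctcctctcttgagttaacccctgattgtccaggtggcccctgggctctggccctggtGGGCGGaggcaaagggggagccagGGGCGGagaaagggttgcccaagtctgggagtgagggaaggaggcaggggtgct
TYRO3: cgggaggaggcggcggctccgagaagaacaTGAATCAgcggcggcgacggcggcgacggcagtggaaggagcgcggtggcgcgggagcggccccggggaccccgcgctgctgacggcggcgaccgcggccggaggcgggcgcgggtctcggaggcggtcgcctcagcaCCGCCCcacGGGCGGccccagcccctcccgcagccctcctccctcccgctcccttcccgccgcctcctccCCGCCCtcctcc
GAS6: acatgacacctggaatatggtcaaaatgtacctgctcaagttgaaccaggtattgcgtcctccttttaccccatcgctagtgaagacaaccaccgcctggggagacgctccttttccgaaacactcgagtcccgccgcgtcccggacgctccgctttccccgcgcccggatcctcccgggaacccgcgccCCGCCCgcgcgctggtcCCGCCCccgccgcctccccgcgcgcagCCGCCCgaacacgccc

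A RefSeq promoter was found for 8 of the 10 genes. GGGCGG was in all 8, with 2 to 6 matches each, and in 42.6% of 35116 RefSeq promoters of this length. TGANTCA was in TYRO3 alone, as TGAATCA 220 bases before the start, and in 6.57% of all promoters. CCAAT was in MFGE8 alone of the 8, with 2 matches, and in 32% of all promoters, and TATAAA was in none of the 8 and in 10.7% of all.

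ADGRB1 (ENSG00000181790, chromosome 8, 142449430 to 142545009, plus strand) had the largest fall of the 10 genes at 12 h. It was at 10.6 and 10.5 CPM with IgG and at 3.88 and 4.05 CPM with anti-M8nAb at 12 h. At 24 h it was at 9.19 and 11.1 CPM with IgG and at 5.74 and 5.55 CPM with anti-M8nAb. Every antibody library was below every IgG library, and the 12 h antibody libraries were the lowest. ADGRB1 fell by 1.41 on the log2 scale at 12 h (SE 0.17, adjusted p = 1.14e-08) and by 0.85 at 24 h (SE 0.17, adjusted p = 4.82e-05), and on log2(FPKM + 1) the values were -0.69 and -0.47, both called. The difference between the times was 0.57 (95% interval 0.09 to 1.04) and did not pass after adjustment (adjusted p = 0.129).

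SCARB1 (ENSG00000073060, chromosome 12, 124776856 to 124882668, minus strand), the receptor for high-density lipoprotein, changed less. It was at 103 and 96.7 CPM with IgG and at 87.6 and 82.6 CPM with anti-M8nAb at 12 h, and at 104 and 116 against 91.3 and 94.1 CPM at 24 h. The antibody libraries were below the IgG libraries at each time. SCARB1 fell by 0.23 on the log2 scale at 12 h (SE 0.07, adjusted p = 0.00575) and by 0.25 at 24 h (SE 0.07, adjusted p = 0.00196). The 12 h call was lost without replicate 1 of IgG at 12 h (-0.18, adjusted p = 0.145) and without replicate 2 of anti-M8nAb at 12 h (-0.19, adjusted p = 0.0976), and the 24 h call without replicate 2 of IgG at 24 h (-0.16, adjusted p = 0.074). A gene on the other strand, ENSG00000287242, overlaps 7.52% of its exon sequence.

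CD47 (ENSG00000196776, chromosome 3, 108043091 to 108091862, minus strand) was at 18.8 and 18.1 CPM with IgG and at 15.9 and 14.2 CPM with anti-M8nAb at 12 h. At 24 h it was at 20.5 and 21.1 CPM with IgG and at 19.5 and 20.0 CPM with anti-M8nAb. The antibody libraries were lower at both times. CD47 fell by 0.29 on the log2 scale at 12 h (SE 0.12, adjusted p = 0.0455), and the 24 h value was -0.08 (95% interval -0.29 to 0.14). The 12 h call was lost when any of the 4 libraries of that time was left out: the adjusted p was 0.219 and 0.128 without replicates 1 and 2 of IgG and 0.0578 and 0.325 without replicates 1 and 2 of anti-M8nAb. It was also lost with the replicate block (adjusted p = 0.0506) and in DESeq2 (adjusted p = 0.0931).

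**Figure D4:**
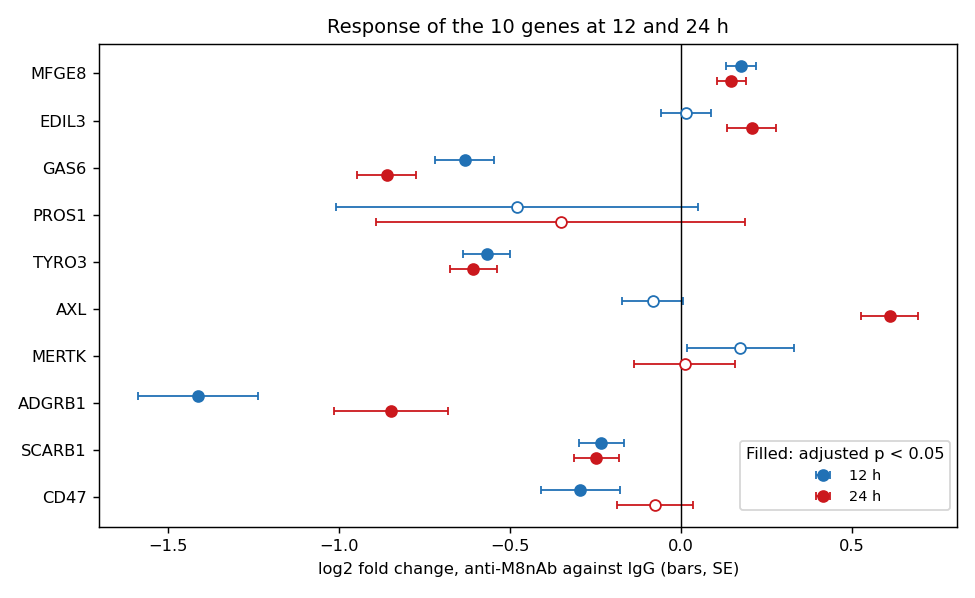
log2 fold change of anti-M8nAb against IgG for the 10 genes at 12 h (blue) and 24 h (red), with the SE as bars and filled points at an adjusted p under 0.05. ADGRB1 is farthest to the left at 12 h (-1.41) and AXL farthest to the right at 24 h (0.61).

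Other genes of the pathway were taken from lists named for their roles. Their counts stand against 15.8% of all genes tested called higher and 16.4% lower at 12 h, and 21.2% and 21.3% at 24 h, and a count near these shares is no result about a list. Of the 3 integrin genes for RGD ligands, ITGB3 was below the filter, no gene was called at 12 h and ITGAV, the alpha subunit that MFGE8 binds, was called higher at 24 h. ITGAV was at 66.9 and 60.4 CPM with IgG and at 88.2 and 89.1 CPM with anti-M8nAb at 24 h, and rose by 0.48 on the log2 scale (SE 0.07, adjusted p = 2.61e-07). ITGB5 was at 0.06 and 0.01 on the log2 scale at 12 and 24 h, not called. The response of ITGAV was higher at 24 than at 12 h in the test of the difference (0.42, adjusted p = 0.00274), though not under limma on log2(FPKM + 1) (0.31, adjusted p = 0.104).

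Of 15 other receptors of phosphatidylserine or its bridges, 10 were tested, and 2 rose and 2 fell at each time, near those shares. ADGRB2, a paralogue of ADGRB1, fell by 0.68 at 12 h (adjusted p = 1.1e-05) and by 0.53 at 24 h (adjusted p = 9.17e-05). LRP1, the most abundant of them at 251 to 349.8 CPM, was not called at either time (-0.07 and -0.12). HAVCR2, SCARF1, STAB2 and CD36, the others called, stayed at or below 3.09 CPM in every library, and their values are not read further. Among 10 other bridging proteins and opsonins, 7 were tested, with 1 higher and 3 lower at 12 h and 2 and 3 at 24 h. PTX3, called lower at both times, had 4 to 33 counts and lost both calls in DESeq2 (adjusted p = 0.0872 and 0.0777). The 12 h call of CALR, also lower, was lost without replicate 1 or 2 of IgG or replicate 2 of anti-M8nAb at 12 h (-0.13, -0.08 and -0.08). The 24 h call of LGALS3, higher, was lost on log2(FPKM + 1) (0.36, adjusted p = 0.0684, limma). THBS1, which encodes thrombospondin-1, was at 49.4 and 45.8 CPM with IgG and 139 and 146 CPM with anti-M8nAb at 12 h, and at 67.6 and 67.8 against 321 and 310 CPM at 24 h. Its log2 fold change was 1.58 at 12 h (adjusted p = 3.14e-24) and 2.22 at 24 h (adjusted p = 2.2e-31), and it also rose with time in IgG cells (0.51, adjusted p = 2.41e-07). TUB, a bridge to MERTK, fell by 0.72 and 0.66 (adjusted p = 8.85e-10 and 4.14e-09).

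GGCX, the vitamin K-dependent carboxylase that makes GAS6 and PROS1 able to bind phosphatidylserine, fell by 0.27 at 12 h (adjusted p = 0.00183) and by 0.43 at 24 h (adjusted p = 2.68e-06). It was the 1 gene of the 3 in its list called at each time, and its 12 h call was lost without replicate 2 of IgG at 12 h (-0.21, adjusted p = 0.0922) and without replicate 1 of anti-M8nAb at 12 h (-0.20, adjusted p = 0.0962). In the 15 genes of signalling from engulfment receptors, all tested, 2 rose and 2 fell at 12 h, and 5 rose and 3 fell at 24 h, where 21.2% and 21.3% of all genes did. PTK2, focal adhesion kinase, fell by 0.50 at 12 h (adjusted p = 1.78e-09) and was at -0.04 at 24 h, not called. ELMO1, the partner of DOCK1 beneath ADGRB1, was at -0.22 at 12 h, not called, and rose by 0.60 at 24 h (adjusted p = 2.18e-05), while the adaptors CRK and CRKL fell by 0.43 and 0.29 at 24 h. DOCK1 and RAC1 were not called at either time (-0.08 and -0.09, and 0.00 and 0.10).

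Of 5 CD47 receptor and modifying genes, 3 were tested. SIRPA, the receptor of CD47, rose by 0.73 at 24 h (adjusted p = 6.65e-05) and was at 0.07 at 12 h, not called. Of the other signals against engulfment, 3 of 6 were tested, and CD24 rose at both times in the count test (0.21, adjusted p = 5.46e-05, and 0.14, adjusted p = 0.00376) but at 24 h was not called on log2(FPKM + 1) or without replicate 2 of IgG at 24 h (0.11, adjusted p = 0.0654) or replicate 2 of anti-M8nAb at 24 h (0.13, adjusted p = 0.0516). Of the relatives, ligands and adaptor of SCARB1, 3 of 5 rose at 12 h and 4 rose and 1 fell at 24 h. PDZK1, called higher at both times, had only 5 to 36 counts, at most 1.77 CPM. Its 12 h call was lost in DESeq2 (adjusted p = 0.0777) and without replicate 1 or 2 of IgG or replicate 1 of anti-M8nAb at 12 h (1.51, 1.51 and 0.91). Its 24 h call was lost without replicate 2 of IgG or replicate 1 of anti-M8nAb at 24 h (1.28 and 1.37). LCAT, which esterifies cholesterol on high-density lipoprotein, rose by 1.28 and 0.94 (adjusted p = 9.76e-11 and 1.25e-07), and SCARB2, a lysosomal relative, by 0.32 and 0.41, the former not called on log2(FPKM + 1) (0.20, adjusted p = 0.0666). APOE rose by 0.37 at 24 h (adjusted p = 8.48e-08). Of 12 tested proteins with discoidin domains, the kind through which MFGE8 and EDIL3 bind membranes, 3 rose and 3 fell at 12 h and 5 rose and 2 fell at 24 h. NRP2 rose by 0.33 at 12 h and by 1.02 at 24 h (adjusted p = 0.00106 and 4.52e-15), and its 12 h call was not made on log2(FPKM + 1) (0.21, adjusted p = 0.0736). DCBLD2 rose by 0.40 and 0.39, and CPXM2 fell by 1.01 and 0.68. Of 8 extracellular vesicle markers, 1 rose and 2 fell at 12 h and 3 rose and 2 fell at 24 h, against 15.8% and 16.4% of all genes tested at 12 h and 21.2% and 21.3% at 24 h. The 12 h call of SDCBP and the 24 h calls of PDCD6IP and FLOT2 were lost on log2(FPKM + 1) (adjusted p = 0.149, 0.133 and 0.112, limma), and the 12 h call of PDCD6IP without replicate 2 of IgG (adjusted p = 0.326) or replicate 1 of anti-M8nAb at 12 h (adjusted p = 0.187). The SDCBP call at 12 h was also lost without replicate 1 or 2 of IgG or replicate 2 of anti-M8nAb at that time (adjusted p = 0.0531, 0.139 and 0.106), and the FLOT2 call without replicate 2 of anti-M8nAb at 24 h (adjusted p = 0.0734). CD9 was lower at both times (-0.30, adjusted p = 4.58e-05, and -0.38, adjusted p = 3.56e-07).

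**Figure D5:**
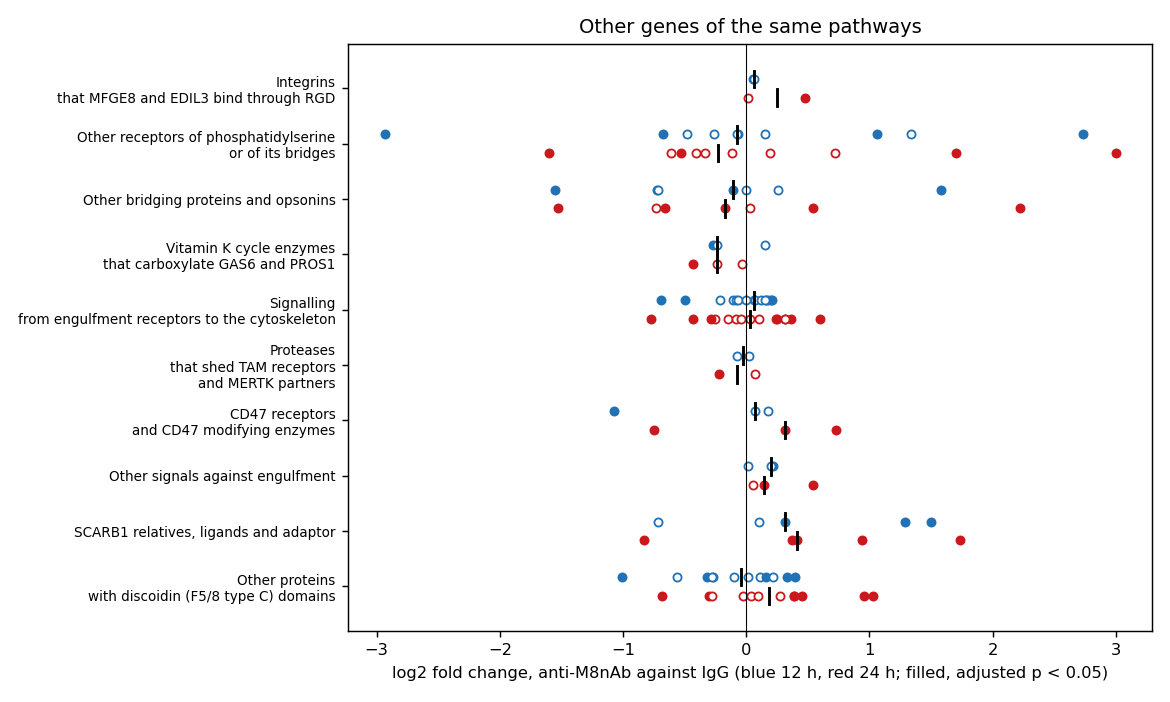
log2 fold change of anti-M8nAb against IgG for the tested genes of 10 other lists at 12 h (blue) and 24 h (red), 1 point a gene, filled at an adjusted p under 0.05, with the list median as a black bar. THBS1 is at 1.58 and 2.22 in the list of bridging proteins, and the list medians lie between -0.24 and 0.41.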

How the data were processed

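The 8 libraries held total RNA of BG01 cells. The authors used Trimmomatic for trimming, STAR in 2-pass mode with GRCh38.p14 for alignment and Picard for duplicates, and made the deposited counts per Ensembl gene with HTSeq, and the authors computed the deposited FPKM with RNAnorm. The submitters' processing notes also name FastQC 0.11.9 and GATK. The strand setting of the counting is not given in the sources used here. Lines with a blank gene name held 53.3 to 54.1% of counts and were left out, and 4 columns of each table were not used.

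Identifiers were paired with symbols in GENCODE 44. Counts were fitted with edgeR 4.0.16 (R 4.3.3) by TMM, filterByExpr, 4 group means and the quasi-likelihood F test over 20165 genes, with Benjamini-Hochberg adjustment at 0.05 and a common biological coefficient of variation of 5.53%. The difference between responses was a contrast of its own. Alternatives used DESeq2 1.42.0, limma 3.58.1 on FPKM with a pseudocount of 1 or 0.1 (all genes, or those averaging 0.5 FPKM or more), other filters, a replicate block and each library left out. All 10 genes are named, and of 15 other lists (120 genes) at each time up to 4 tested genes a list by smallest adjusted p, not all of them printed. LRP1, DOCK1, RAC1, ITGB3, CD14, CSF1R, TYROBP, DCN, LUM and VWF were named outside the rule of smallest adjusted p, after their values were seen. The members and lists were chosen with earlier results of these data known. Promoter sequences are from RefSeq on GRCh38.p14.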

Additional observations from a re-analysis of the deposited data

Results flagged for a closer look

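For AXL and 13 genes of the other lists the response to anti-M8nAb differed between 24 and 12 h in the test of the difference (edgeR, adjusted p under 0.05). These are 14 of the 107 tested genes of the members and other lists, 10 with a higher response at 24 h (9.35%, against 5.79% of all genes tested) and 4 with a lower one (3.74%, against 6.54%). The log2 response at 24 h minus that at 12 h was 0.69 for AXL, 0.42 for the integrin gene ITGAV, 0.64 for THBS1, 0.70 for NRP2 and 0.66 for SIRPA. It was 0.82 for ELMO1, 1.00 for VAV3, 0.46 for PTK2, -0.32 for CRK and -0.36 for CRKL among the signalling genes. It was 0.27 for APOE and 0.40 for PDCD6IP, a vesicle marker gene. Among marker genes, the values were -0.50 for NANOG and -0.49 for COL1A2. The call was lost for APOE without replicate 1 or 2 of IgG at 12 h (0.25, 0.25), replicate 1 of IgG at 24 h (0.14) or replicate 1 of anti-M8nAb at 24 h (0.23). It was lost for COL1A2 without replicate 1 of anti-M8nAb at 12 h (-0.39). For CRK it was lost without replicate 2 of IgG or of anti-M8nAb at 12 h or replicate 1 of anti-M8nAb at 24 h (-0.33, -0.29 and -0.29). For SIRPA it was lost without replicate 1 or 2 of IgG at 12 h (0.63, 0.66), replicate 2 of anti-M8nAb at 12 h (0.54), replicate 1 of IgG at 24 h (0.44) or replicate 2 of anti-M8nAb at 24 h (0.61), and in DESeq2. Under limma on log2(FPKM + 1) the difference was not called for ELMO1 (0.49, adjusted p = 0.0586), VAV3 (0.56, adjusted p = 0.055), PDCD6IP (0.34, adjusted p = 0.0525), COL1A2 (-0.42, adjusted p = 0.076), ITGAV (0.31, adjusted p = 0.104), SIRPA (0.45, adjusted p = 0.146) and APOE (0.24, adjusted p = 0.208). With all genes in that fit it was also not called for AXL (adjusted p = 0.0512), NRP2 (0.0703), CRK (0.0692) and CRKL (0.0755). The calls of APOE and SIRPA were lost with no filter on low counts as well (adjusted p = 0.0998 and 0.14).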

How the results depend on the processing

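No call of the 10 genes changed direction under any alternative: 611 values kept their side of the threshold, 34 lost the call and 1 gained it. The calls of ADGRB1, TYRO3 and GAS6 at both times and of AXL at 24 h held under all 17 alternatives. At 12 h the number called higher was 1, and 0 under limma on log2(FPKM + 1), on log2(FPKM + 0.1) and on all genes, and the number called lower was 5, and 3 under limma on all genes. At 24 h the number higher was 3, and 1 under the same 3 limma fits. These fits take no TMM scaling, and on log2(FPKM + 1) the median of all genes fitted was -0.04 at 12 h and -0.07 at 24 h. The part of this shift in the lost calls was not tested. The difference between the times called 1 member, and 0 under limma on all genes. IgG at 24 h against 12 h called 1 member, and 0 in DESeq2, with no filter and in the 3 limma fits. With a library left out, the counts were 1 to 1 higher and 3 to 5 lower at 12 h, 2 to 3 higher and 3 to 4 lower at 24 h, 1 to 1 higher and 0 to 0 lower for the difference and 0 to 1 higher and 0 to 0 lower for time in IgG cells. With the replicate block the counts were 1 higher and 4 lower at 12 h and 3 and 4 at 24 h, with 1 higher for the difference and for time. The labels give shared replicate numbers, but deviations of same-numbered libraries correlated over genes at -0.0372 to 0.0268, so no gene-by-gene pattern common to them was seen. Such a correlation does not see a shift that is equal in all genes. A shared culture need not leave a common pattern, so the values cannot tell whether same-numbered libraries shared one.

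Over all genes, 6496 were called at 12 h, and 3036 under limma on all genes, while at 24 h 8566 were called and 5697 there. The difference between the times gave 2486 genes, and 1228 with no filter (of 41621), 919 and 896 in the limma fits (of 17076) and 454 on all genes (of 41621). Time in IgG cells gave 2753 genes, and 1416, 766, 683 and 246 in the same order. The cause was not tested. Without replicate 1 of IgG at 12 h the counts were 4241 at 12 h, 1452 for the difference and 1263 for time in IgG cells. Without replicate 2 of IgG at 12 h they were 1566 for the difference and 928 for time, and without replicate 2 of IgG at 24 h 1519 for time. With 2 libraries a group, the small counts of PROS1 (8 to 17) leave wide intervals.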

Other observations

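Over the 8 libraries, the genes whose log2 CPM followed that of MFGE8 most closely, among 10686 genes with a mean of at least 10 CPM, were the lncRNA ENSG00000231698 (Pearson r 0.984), the ribosomal protein gene RPL18 (0.983), the mitochondrial malate dehydrogenase gene MDH2 (0.983), the zinc finger gene ZNF74 (0.980) and the elongation factor gene EEF1D (0.977). In all, 74 genes had r above 0.95. These values describe 8 libraries that share the 4 groups, and no test was made.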
